A study of Mus musculus with 22 samples.

Results

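The genes described here are 42 mitosis and G2/M genes of mouse microglia, the resident macrophages of the brain. They were taken by symbol from a list of mitotic cyclins, kinases, kinesins, kinetochore and condensin genes. All 42 were found among the 54532 genes of the count table, and all 42 were among the 16554 genes kept by a filter on low counts. The microglia came from male C57BL/6J mice that modelled Gulf War Illness, and each of 22 polyadenylated RNA libraries was counted per gene.

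Gulf War exposure (GW) meant pyridostigmine bromide, a cholinesterase inhibitor, at 0.7 mg/kg together with the insecticide permethrin at 200 mg/kg, injected for 10 days from an age of 10 weeks. Control mice (Ctrl) were injected with vehicle, and all mice were then kept until 17.5 months old. Cannabidiol (CBD, 30 mg/kg), a compound of the cannabis plant, was injected for 28 days and then every 2 days for 2 weeks, or its vehicle (Veh) was injected instead. Lipopolysaccharide (LPS, 0.33 mg/kg), a component of the outer membrane of Escherichia coli, or saline (PBS) followed the last dose, and brains were taken 24 hours later. The groups were Ctrl-Veh-PBS (n = 4), Ctrl-Veh-LPS (n = 4), GW-Veh-PBS (n = 4), GW-Veh-LPS (n = 3), GW-CBD-PBS (n = 3) and GW-CBD-LPS (n = 4). CBD was compared in GW mice alone, since CBD-treated control mice are not among the groups analysed. The sorting gate took live cells with intermediate CD45, with CD11b and without CD11a. Libraries are numbered by their library names, so GW-Veh-LPS and GW-CBD-PBS hold replicates 2, 3 and 4. The labels do not state that each library came from a mouse of its own, so the p-values measure the spread between libraries, which may be technical.

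Cells that divide switch these genes on late in the cell cycle. Cyclin A and B proteins bind the kinase Cdk1 and drive entry into mitosis, where condensins compact the chromosomes, kinetochores attach them to the spindle, kinesins move and shape the spindle, and a checkpoint holds back the anaphase-promoting complex until every chromosome is attached. The repressor complex DREAM and the activators B-Myb and FoxM1 act on their promoters through a short element named CHR, often beside CCAAT boxes bound by NF-Y. Microglia of the adult brain renew slowly, so messages of mitosis are sparse in them.

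The promoters below are those of Cdk1, Top2a and Cenpf, which carry both elements, and of Ncaph and Kif2c. These last genes had the smallest p of the 42 for LPS in control mice. Kif2c rose there, while the log2 fold change of Ncaph (-1.29) was near the median of the 42 (-1.31). They are RefSeq windows of GRCm38.p6, from 250 bases before to 50 bases after the start of the gene, 5′ to 3′ on the gene's strand. Capitals mark matches to CHR (TTTGAA or TTCGAA) and to CCAAT, each searched on both strands, so that TTCAAA and ATTGG also count.
Cdk1, chr10:69352863-69353162, minus strand: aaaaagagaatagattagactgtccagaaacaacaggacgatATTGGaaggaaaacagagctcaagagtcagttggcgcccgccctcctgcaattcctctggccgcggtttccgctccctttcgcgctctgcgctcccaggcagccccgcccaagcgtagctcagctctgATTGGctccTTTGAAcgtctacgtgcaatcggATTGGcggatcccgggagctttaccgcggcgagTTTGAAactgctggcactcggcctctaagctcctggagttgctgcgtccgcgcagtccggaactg
Top2a, chr11:99024140-99024439, minus strand: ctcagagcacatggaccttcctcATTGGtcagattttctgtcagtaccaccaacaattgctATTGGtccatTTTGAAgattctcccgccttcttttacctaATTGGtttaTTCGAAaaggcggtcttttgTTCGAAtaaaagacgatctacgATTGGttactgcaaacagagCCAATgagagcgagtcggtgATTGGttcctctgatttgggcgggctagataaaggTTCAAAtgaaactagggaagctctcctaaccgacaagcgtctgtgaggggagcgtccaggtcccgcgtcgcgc
Cenpf, chr1:189688037-189688336, minus strand: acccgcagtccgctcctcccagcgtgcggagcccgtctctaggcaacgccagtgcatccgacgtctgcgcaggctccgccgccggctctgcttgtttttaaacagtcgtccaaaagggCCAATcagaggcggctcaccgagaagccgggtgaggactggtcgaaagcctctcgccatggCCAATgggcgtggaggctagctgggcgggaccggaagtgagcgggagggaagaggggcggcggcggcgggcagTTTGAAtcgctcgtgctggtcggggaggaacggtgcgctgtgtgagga
Ncaph, chr2:127133905-127134204, minus strand: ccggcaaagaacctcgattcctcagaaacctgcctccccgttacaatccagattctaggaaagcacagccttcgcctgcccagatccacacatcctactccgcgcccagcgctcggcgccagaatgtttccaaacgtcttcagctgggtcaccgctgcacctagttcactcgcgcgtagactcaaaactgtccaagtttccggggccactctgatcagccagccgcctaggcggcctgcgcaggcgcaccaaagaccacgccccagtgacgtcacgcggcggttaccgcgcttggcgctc
Kif2c, chr4:117178723-117179022, minus strand: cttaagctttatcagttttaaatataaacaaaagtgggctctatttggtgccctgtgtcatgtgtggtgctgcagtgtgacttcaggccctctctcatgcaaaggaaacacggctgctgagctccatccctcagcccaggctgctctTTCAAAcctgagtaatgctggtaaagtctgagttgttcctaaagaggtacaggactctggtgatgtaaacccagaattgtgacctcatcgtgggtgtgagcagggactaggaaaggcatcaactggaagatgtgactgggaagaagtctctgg

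Of the 42 genes, 35 had a promoter in the RefSeq table, in 37 windows (Ect2 and Prc1 have a pair of windows each, which overlap). CHR was found in 30 of 37 windows (81.1%), against 19.2% of all 32851 promoter windows of the same length. CCAAT was found in 29 windows (78.4% against 37.4%), and both in 27 (73.0% against 7.52%). Of the 41 CHR matches in these windows, 29 lay within 50 bases of the start. Cdk1 had 2 CHR and 3 CCAAT matches, Cenpf had 1 and 2, and Top2a had 4 and 6. The Kif2c window held a CHR match at -103 and no CCAAT, and its start lay inside the gene's GENCODE span (chr4:117159639-117182639). No match was found in the windows of Ncaph, Nuf2, Nusap1, Melk and Birc5. A match is a run of letters in the window and not a measured binding site.

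Library totals ran from 28676930 to 40458326 counts. The 15 microglia markers summed to between 38550 and 68090 CPM (library-scaled counts) in every library. In contrast 8 neuron markers reached at most 7.57 CPM, 7 neural precursor markers 11.3 CPM and 11 T and NK cell markers 29.7 CPM. Sums of other lists were higher. They ran from 248.1 to 618.0 CPM for the oligodendrocyte lineage and from 161.9 to 288.8 CPM for astrocytes. Border macrophage markers ran from 258.0 to 631.0 CPM and erythroid markers from 70.35 to 1588 CPM. Ctrl-Veh-PBS replicate 3 stood apart. Its 12 markers of neutrophil precursors (such as Elane, Mpo, Camp and Ngp) summed to 17520 CPM, where the rest of its group held 16.6 to 39.9 CPM, and its 12 markers of mature neutrophils to 12780 CPM. Precursor markers were also raised in Ctrl-Veh-LPS replicate 1 (1252 CPM) and GW-Veh-PBS replicate 1 (982.1 CPM). The median library held 16.4 CPM of the precursor markers, and Elane, Mpo, Ctsg, Fcnb, Ms4a3 and Gfi1 had no count in at least 11 of the 22. The microglia markers had means of 44120 ± 4448 CPM (SD, n = 4) in Ctrl-Veh-LPS, 47190 ± 5549 CPM (n = 3) in GW-Veh-LPS and 60710 ± 4301 CPM (n = 4) in GW-CBD-LPS, beside 61920 CPM or more in the PBS groups. Other marker sums also moved with LPS and CBD. Those of B and plasma cells were 1091 CPM in Ctrl-Veh-PBS, 372.7 CPM in Ctrl-Veh-LPS, 488.3 CPM in GW-Veh-LPS and 1015 CPM in GW-CBD-LPS. In the same order, endothelial and mural markers were at 47.99, 18.81, 19.48 and 37.2 CPM, and monocyte markers at 611.0 (121.0 without replicate 3), 371.7, 281.4 and 155.9 CPM. The part of these marker shifts in the results was not tested.

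Summed over the 42 genes, the level was highest in Ctrl-Veh-PBS replicate 3 and in the CBD-treated mice given LPS. The 4 libraries of Ctrl-Veh-PBS held 194.1, 139.1, 603.8 and 163.3 CPM, a mean of 275.1 ± 220.3 (SD, n = 4), or 165.5 ± 27.6 (n = 3) without replicate 3. Ctrl-Veh-LPS held 246.4, 137.2, 155.3 and 205.9 CPM. GW-Veh-PBS held 193.7, 223.1, 224.1 and 159.6 CPM, and the 3 libraries of GW-Veh-LPS 158.5, 148.3 and 166.4 CPM. Apart from the library with neutrophil markers, these values overlapped from group to group. GW-CBD-PBS held 151.4, 175.3 and 161.7 CPM, and GW-CBD-LPS held 581.1, 285.6, 260.9 and 414.8 CPM, a mean of 385.6 ± 146.8 (n = 4). All 4 libraries of GW-CBD-LPS were above every other library except Ctrl-Veh-PBS replicate 3. Kif2c, Ncaph and Stmn1 made up a large part of these sums. Without these genes the means were 94.0 CPM in Ctrl-Veh-PBS without replicate 3 (190.3 with it) and 80.4 CPM in Ctrl-Veh-LPS. They were 117.5 CPM in GW-Veh-PBS, 79.4 CPM in GW-Veh-LPS, 97.7 CPM in GW-CBD-PBS and 235.8 CPM in GW-CBD-LPS. Summed levels carry no test, because the genes were chosen with results of these data known. In bulk RNA, more dividing cells and more of these messages in each cell cannot be told apart.

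**Figure D1:**
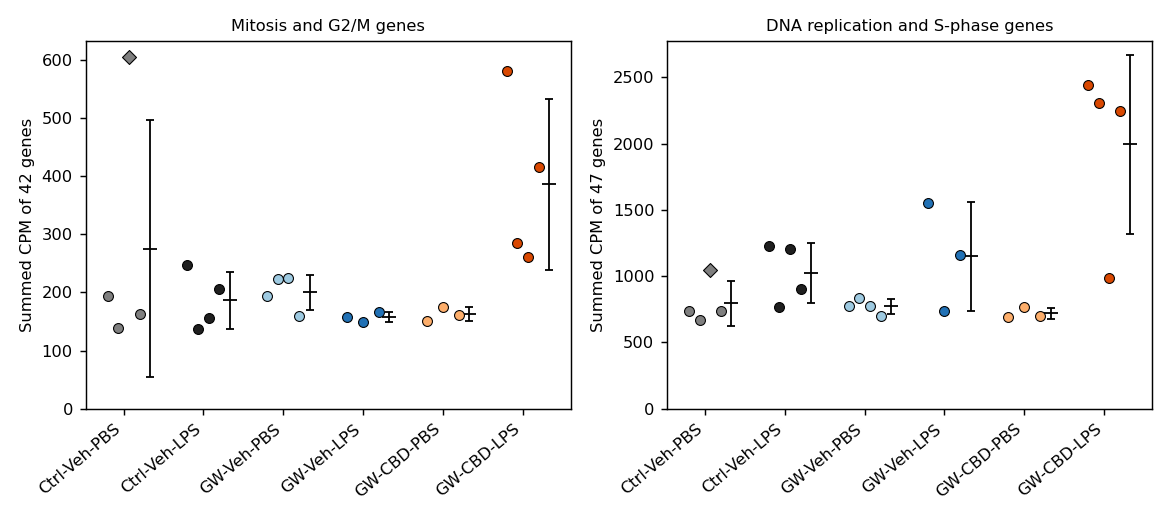
Summed CPM of the 42 mitosis and G2/M genes (left) and of 47 DNA replication and S-phase genes (right) in each library, by group. Points are libraries, the diamond is Ctrl-Veh-PBS replicate 3, and bars beside the points are mean ± SD. On the left GW-CBD-LPS runs from 260.9 to 581.1 CPM, above all other libraries but the diamond at 603.8 CPM.

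Gene by gene, 23 of the 42 were highest of all 22 libraries in Ctrl-Veh-PBS replicate 3 and 15 in GW-CBD-LPS replicate 1. The remaining 4 peaked elsewhere, Cenpf in GW-Veh-PBS replicate 4, Kif2c in Ctrl-Veh-LPS replicate 1, Stmn1 in GW-CBD-LPS replicate 4 and Smc2 in GW-CBD-LPS replicate 2. The 2 highest libraries differed in neutrophil precursor markers. GW-CBD-LPS replicate 1 held 0.972 CPM of these, and the whole group 0.71 to 3.52 CPM. Of single precursor markers, Camp and Elane were at 0 in all 4 libraries of this group, and Ngp held 1, 10, 7 and 0 counts. Markers of mature neutrophils summed to 430.1 to 723.8 CPM in this group, beside a median of 637.1 CPM over all libraries. The part of the neutrophil-marked cells in the levels of Ctrl-Veh-PBS replicate 3 was not tested.

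**Figure D2:**
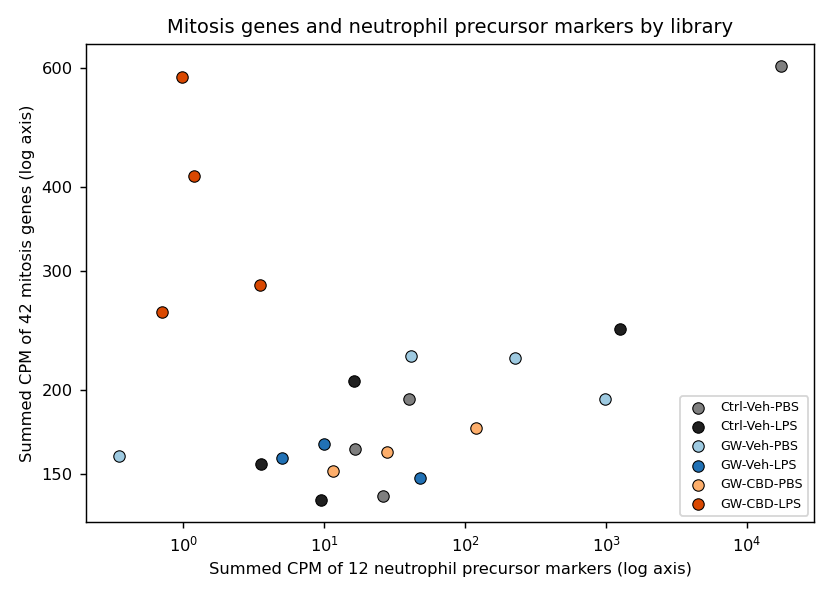
Summed CPM of the 42 genes (vertical, log axis) against summed CPM of 12 neutrophil precursor markers (horizontal, log axis), 1 point per library, coloured by group. The highest points lie at opposite ends, Ctrl-Veh-PBS replicate 3 at 17520 CPM of the markers and GW-CBD-LPS replicate 1 at 0.972 CPM.

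Per length of exon, most of the 42 were scarce. The median over the 22 libraries was 20.5 RPKM (CPM per kilobase of exon) for Stmn1, the tubulin-binding protein stathmin, which cells that do not divide can also make. Ncaph, a subunit of condensin I, followed at 7.08 RPKM, Cdc20, an activator of the anaphase-promoting complex, at 3.22 RPKM and Kif2c, a kinesin that takes microtubules apart at the centromere, at 1.97 RPKM. The other 38 lay between 0.0465 RPKM (Kif4, a chromosome-bound kinesin) and 1.85 RPKM (Ccnb2, cyclin B2). Ncaph was the most abundant subunit of its complex. In Ctrl-Veh-PBS it was at 7.57 ± 0.473 RPKM (SD, n = 4), against 0.192 ± 0.241 RPKM for Ncapg, 1.45 ± 0.582 RPKM for Smc2, 1.94 ± 1.59 RPKM for Smc4 and 1.26 ± 0.703 RPKM for Ncapd2, the other subunits of condensin I.

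**Figure D3:**
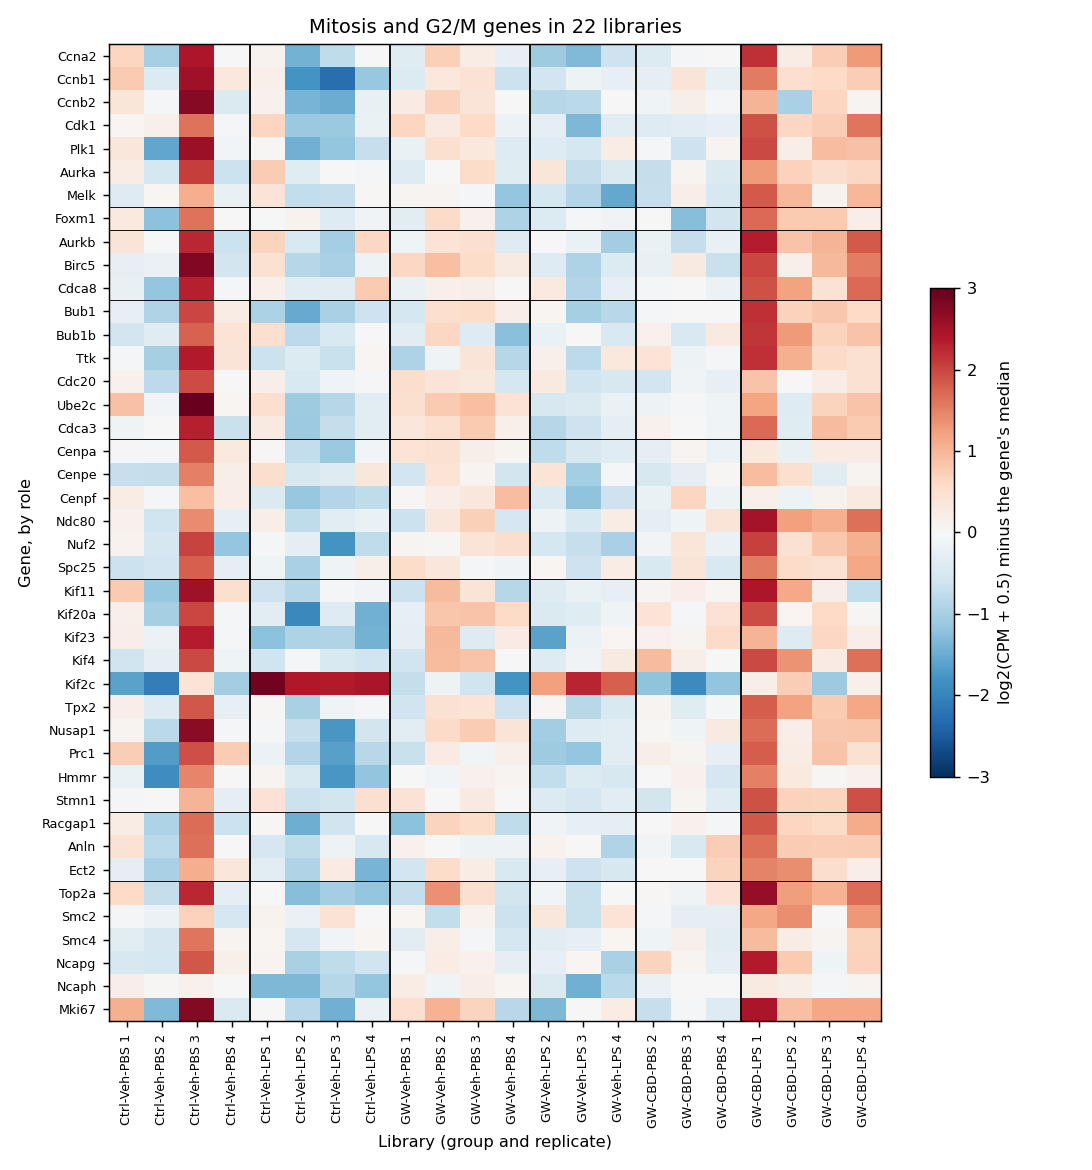
Levels of the 42 genes (rows, grouped by role) in the 22 libraries (columns, by group), as log2(CPM + 0.5) minus the median of the gene, with colours ending at -3 and 3. Ctrl-Veh-PBS replicate 3 and GW-CBD-LPS replicate 1 are red in most rows, and Kif2c and Ncaph show other patterns in the LPS groups than their neighbours.

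LPS in control mice was compared first. In the edgeR test 14 of 42 genes passed an adjusted p of 0.05, 13 lower and 1 higher, where 20.4% of all genes tested were called (9.62% lower, 10.8% higher). The median log2 fold change of the 42 was -1.31, against -0.02 over all genes. Without Ctrl-Veh-PBS replicate 3 the median was -0.38 and 4 genes were called, Ncaph, Cenpf and Kif23 lower and Kif2c higher, where 17.5% of all genes were. Leaving out other single libraries also moved the count. It was 15, 21 and 19 without Ctrl-Veh-PBS replicates 1, 2 and 4 (2611, 2965 and 2587 of all genes, against 3378 with all libraries). Without Ctrl-Veh-LPS replicates 1, 2, 3 and 4 it was 15, 9, 8 and 9 (2384, 3417, 3213 and 2668 of all genes). DESeq2 called 23 (24.2% of all genes) and limma voom 4 (27.1%). Leaving out Ctrl-Veh-PBS replicate 3, Ctrl-Veh-LPS replicate 1 and GW-Veh-PBS replicate 1 together, the libraries rich in neutrophil precursor markers, gave 5 calls (14.2% of all genes), Ncaph, Cenpf, Ccnb1 and Ube2c lower and Kif2c higher.

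The mitotic cyclins and kinases had 3 of 7 genes called lower. Ccnb1 (cyclin B1, the partner of Cdk1) held 5.15, 1.97, 18.6 and 3.55 CPM in Ctrl-Veh-PBS and 3.16, 0.444, 0.185 and 0.994 CPM in Ctrl-Veh-LPS. Its log2 fold change was -2.63 (SE 0.69, adjusted p = 0.00959), and -1.65 (SE 0.59, adjusted p = 0.0608) without replicate 3 of the PBS group. Plk1, a kinase of spindle assembly, was called at -2.13 (adjusted p = 0.0378), and without that library it was at -0.66 (adjusted p = 0.443), where the call of Ccnb2 ended too (-0.75, adjusted p = 0.325). Cdk1 itself was at 5.66, 6.05, 17.9 and 5.17 CPM against 8.77, 2.25, 2.22 and 4.65 CPM. These groups overlapped, and its log2 fold change of -0.96 (SE 0.46) did not pass (adjusted p = 0.145). Without replicate 3 it was -0.39 (adjusted p = 0.563).

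Among the checkpoint and anaphase genes 2 of 6 were called lower. Ube2c, which loads ubiquitin for the anaphase-promoting complex, had a log2 fold change of -2.69 (SE 0.72, adjusted p = 0.011), and Bub1, a kinase of the spindle checkpoint, one of -2.89 (SE 0.80, adjusted p = 0.0132). Without Ctrl-Veh-PBS replicate 3 they were at -0.94 (adjusted p = 0.197) and -1.60 (adjusted p = 0.114). In the kinetochore group Cenpf and Cenpa, the centromeric histone H3 variant, were called of 6 (Cenpa -1.30, adjusted p = 0.0203). Without that library Cenpa was at -0.60 (adjusted p = 0.150). Cenpf, a protein of the outer kinetochore, was at 3.32, 2.70, 5.59 and 3.27 CPM in Ctrl-Veh-PBS and at 1.93, 0.971, 1.27 and 1.41 CPM in Ctrl-Veh-LPS, without overlap. It fell by 1.42 on the log2 scale (SE 0.32, adjusted p = 0.00361), and by 1.19 (adjusted p = 0.0146) without replicate 3.

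Of 10 spindle motors and microtubule proteins, Kif23, Prc1, Nusap1 and Kif20a were called lower. Kif23, a motor of the central spindle, held 1.43, 0.986, 8.07 and 1.12 CPM in Ctrl-Veh-PBS and 0.21, 0.389, 0.396 and 0.128 CPM in Ctrl-Veh-LPS. Every LPS library was below every PBS library, and the log2 fold change was -3.34 (SE 0.79, adjusted p = 0.00498), or -2.07 (SE 0.68, adjusted p = 0.0394) without replicate 3. Kif11, the motor that keeps spindle poles apart, was at -2.12 (SE 0.83, adjusted p = 0.0782), or -0.94 (SE 0.77, adjusted p = 0.434) without that library. Prc1 (-1.41), Nusap1 (-0.66) and Kif20a (-1.004) were not called without it. Exons of Kif20a overlap those of Cdc23 on the opposite strand over 29.3% of their length, and no source used here states whether counting used the strand, so its counts are uncertain. The same holds, over 11.1% to 15.1% of the exons, for Ccna2, Kif4, Prc1 and Ncapg. Ube2c overlaps Tnnc2 over 22.8%, but Tnnc2 held 1 count over all libraries. Shorter overlaps with genes of higher counts leave Cdc20 and Cdca8 uncertain too. Cdc20 (5375 counts) overlaps Elovl1 (207098 counts) over 2.84%, and Cdca8 (3480 counts) overlaps 9930104L06Rik (16617 counts) over 4.48%.

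Ncaph and Kif2c had the smallest adjusted p of the 42. Ncaph held 35.2, 31.4, 33.1 and 30.6 CPM in Ctrl-Veh-PBS and 11.7, 11.7, 16.7 and 13.3 CPM in Ctrl-Veh-LPS. Replicate 3 of the PBS group lay within the range of the other 3 libraries here, unlike for most of the 42 genes. It fell by 1.29 on the log2 scale (SE 0.17, adjusted p = 2.15e-05), and by 1.31 (SE 0.19) without that library. Kif2c held 2.47, 1.64, 11.5 and 3.91 CPM in Ctrl-Veh-PBS and 66.7, 47.4, 46.3 and 49.1 CPM in Ctrl-Veh-LPS. It rose by 3.42 on the log2 scale (SE 0.52, adjusted p = 9.32e-05), and by 4.25 (SE 0.47, adjusted p = 6.46e-06) without replicate 3. No other gene of the 42 was called higher in this comparison.

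**Figure D4:**
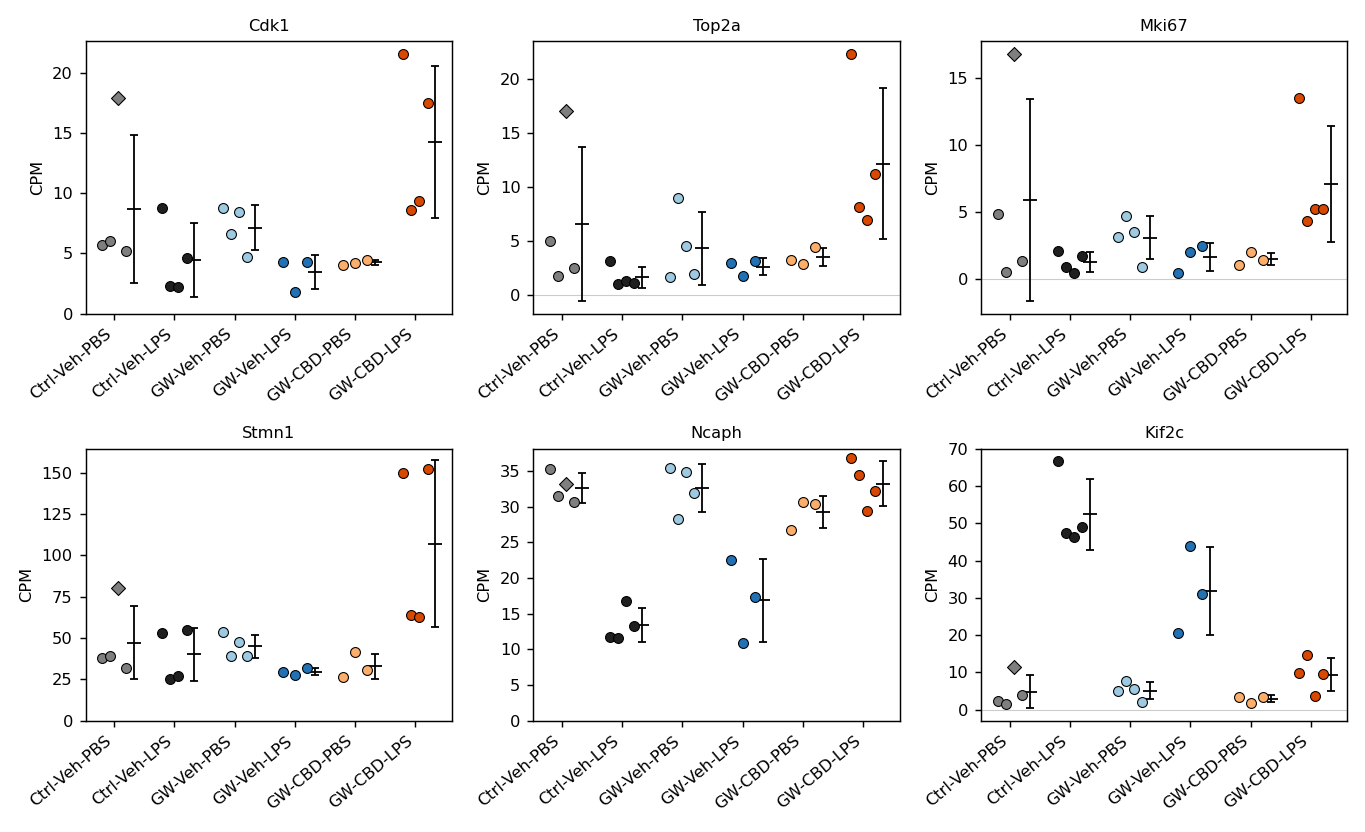
CPM of Cdk1, Top2a, Mki67, Stmn1, Ncaph and Kif2c in each library, by group. Points are libraries, the diamond is Ctrl-Veh-PBS replicate 3, and bars beside the points are mean ± SD. Ncaph is low and Kif2c high in the LPS groups of vehicle-treated mice, and Cdk1, Top2a and Stmn1 are high in GW-CBD-LPS.

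Chromosome structure genes had 2 of 6 called lower, Ncaph and Top2a, the topoisomerase that untangles sister chromatids. Top2a was at 4.99, 1.71, 17.0 and 2.49 CPM in Ctrl-Veh-PBS and at 3.12, 0.999, 1.29 and 1.12 CPM in Ctrl-Veh-LPS, and its log2 fold change of -2.01 (adjusted p = 0.0308) was -0.96 (adjusted p = 0.239) without replicate 3. Mki67, the proliferation marker that coats mitotic chromosomes, was at -2.18 (SE 0.78, adjusted p = 0.0539), or -0.84 (SE 0.67, adjusted p = 0.425) without it. Smc4, an ATPase subunit of condensin, was at -0.62 (adjusted p = 0.242), Foxm1, the transcription factor of G2/M genes, at -0.70 (adjusted p = 0.379) and Stmn1 at -0.24 (adjusted p = 0.65). These 3 values turned above 0 without Ctrl-Veh-PBS replicate 3, to 0.10, 0.08 and 0.10. No gene of the chromosomal passenger complex (Aurkb, Birc5 and Cdca8) or of cytokinesis (Racgap1, Anln and Ect2) was called by edgeR, while DESeq2 called Birc5 (-1.74, adjusted p = 0.026) and Anln (-1.35, adjusted p = 0.0236) lower.

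LPS in GW mice given vehicle gave 3 calls among the 42, Ncaph and Cenpf lower and Kif2c higher. Over all genes 9.53% were called, 4.45% higher and 5.07% lower. Without Ctrl-Veh-PBS replicate 3 there were 4 calls (9.5% of all genes), Cenpa being added, and without the 3 neutrophil-rich libraries the same 3 genes were called (6.89% of all genes). Ncaph held 35.5, 28.2, 34.8 and 31.9 CPM in GW-Veh-PBS and 22.5, 10.8 and 17.3 CPM in GW-Veh-LPS, a log2 fold change of -0.95 (SE 0.18, adjusted p = 0.00264). Kif2c held 5.04, 7.69, 5.45 and 2.13 CPM in GW-Veh-PBS and 20.6, 44.0 and 31.0 CPM in GW-Veh-LPS, a log2 fold change of 2.65 (SE 0.52, adjusted p = 0.00297). For both genes no LPS library overlapped a PBS library. Cenpf fell by 1.35 on the log2 scale (SE 0.35, adjusted p = 0.0198), with GW-Veh-PBS at 2.82 to 5.68 CPM and GW-Veh-LPS at 0.919 to 1.97 CPM. That call was lost without GW-Veh-PBS replicate 4, without GW-Veh-LPS replicate 3 or 4 and in a fit of the compared groups alone, with adjusted p up to 0.104 over all alternatives.

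The median of the 42 in GW mice was -0.63, against -0.04 over all genes, and 12 genes were lower without overlap between the groups (Ncaph, Cenpf, Ccna2, Ccnb2, Cdk1, Birc5, Ube2c, Cdca3, Cenpa, Nuf2, Hmmr and Stmn1), where 10.4% of all genes were. Cdk1 was at -1.04 (SE 0.50, adjusted p = 0.208), Mki67 at -0.88 (adjusted p = 0.561), Top2a at -0.71 (adjusted p = 0.566) and Stmn1 at -0.60 (adjusted p = 0.317). Ccnb1, Plk1, Foxm1, Kif11 and Smc4 were at -0.62 or nearer to 0, with adjusted p of 0.721 or more. The response to LPS in GW mice minus that in control mice gave no call in edgeR (0 of 42 and 0 of all genes). The smallest p were those of Ccnb1 (2.27, SE 0.96, adjusted p = 0.364), Kif23 (2.36, SE 1.08, adjusted p = 0.381) and Ttk, a checkpoint kinase (3.04, SE 1.56, adjusted p = 0.413). Without Ctrl-Veh-PBS replicate 3 these 3 values were 1.27, 1.08 and 1.24 (adjusted p = 0.521, 0.624 and 0.723). DESeq2 and limma voom called 0 of the 42, and 0.356% and 0.671% of all genes. The median of this difference was 0.56 with all libraries and -0.27 without Ctrl-Veh-PBS replicate 3.

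In GW mice treated with CBD, LPS went with values above those of PBS for most of the genes. The log2 fold change was above 0 for 41 of 42 genes, with a median of 1.34 against 0.00 over all genes, and 24 genes were higher without overlap (8.37% of all genes were), none lower. The edgeR test called 1 gene, Stmn1, where 0.417% of all genes were called. Stmn1 held 26.7, 41.5 and 30.5 CPM in GW-CBD-PBS and 150, 63.8, 62.8 and 152 CPM in GW-CBD-LPS. It rose by 1.70 on the log2 scale (SE 0.37, adjusted p = 0.0483). This value was just under the threshold, and leaving out any of GW-CBD-PBS replicates 2, 3 and 4 or GW-CBD-LPS replicates 1, 2 and 4 ended the call, with adjusted p up to 0.35 over all alternatives.

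How many genes were called varied with the fit. Ctrl-Veh-PBS replicate 3 is in neither group of this comparison but shares its filter, scaling and estimate of the spread, and without it 2 genes were called (0.571% of all genes), Stmn1 at 1.69 (adjusted p = 0.024) and Aurkb, the kinase of the chromosomal passenger complex, at 2.20 (SE 0.50, adjusted p = 0.0462). Without all 3 neutrophil-rich libraries 4 genes were called (0.953% of all genes), Stmn1, Aurkb, Cdk1 and the kinetochore gene Ndc80. DESeq2 called 6 genes, and limma voom with library weights 37 (2.08% and 22.8% of all genes). The median of the 42 in edgeR ran from 0.92 to 1.51 over the fits that left out 1 library.

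By role, all 7 cyclins and mitotic kinases were above 0 (median 1.48). Cdk1 held 4.06, 4.19 and 4.48 CPM in GW-CBD-PBS and 21.6, 8.58, 9.32 and 17.5 CPM in GW-CBD-LPS, without overlap, a log2 fold change of 1.74 (SE 0.51, adjusted p = 0.176). Plk1 was at 1.48 (SE 0.76) and Ccnb1 at 1.05 (SE 0.71). Foxm1 held 2.75, 0.824 and 1.71 CPM in the PBS group and 9.97, 5.02, 5.06 and 3.16 CPM in the LPS group, and it was at 1.72 (SE 0.60, adjusted p = 0.261). The 3 passenger complex genes had log2 fold changes from 1.64 to 2.21, and none was called. Among the checkpoint and anaphase genes the 6 values ran from 0.77 to 1.72, and those of cytokinesis from 0.86 to 1.16.

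The chromosome genes Top2a (1.79, SE 0.69, adjusted p = 0.321) and Mki67 (2.21, SE 0.86, adjusted p = 0.332) did not overlap between the groups. Mki67 was at 1.10, 2.02 and 1.48 CPM against 13.5, 4.31, 5.23 and 5.23 CPM, so replicate 1 was far above the other 3 LPS libraries. Smc4 was at 0.65 (SE 0.39) and Kif11 at 1.38 (SE 0.89), with GW-CBD-LPS replicate 4 at 0.472 CPM below all PBS libraries for Kif11. Ncaph, at 26.7, 30.6 and 30.4 CPM against 36.8, 34.5, 29.4 and 32.2 CPM, differed by 0.19 with overlap. Cenpf, at 2.34, 4.57 and 2.43 CPM against 3.10, 2.44, 3.02 and 3.42 CPM, was the only gene below 0 (-0.06, SE 0.34), and its sign turned in some other fits. Kif2c was at 3.44, 1.92 and 3.47 CPM against 9.77, 14.7, 3.79 and 9.52 CPM, a log2 fold change of 1.68 (SE 0.55, adjusted p = 0.224).

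**Figure D5:**
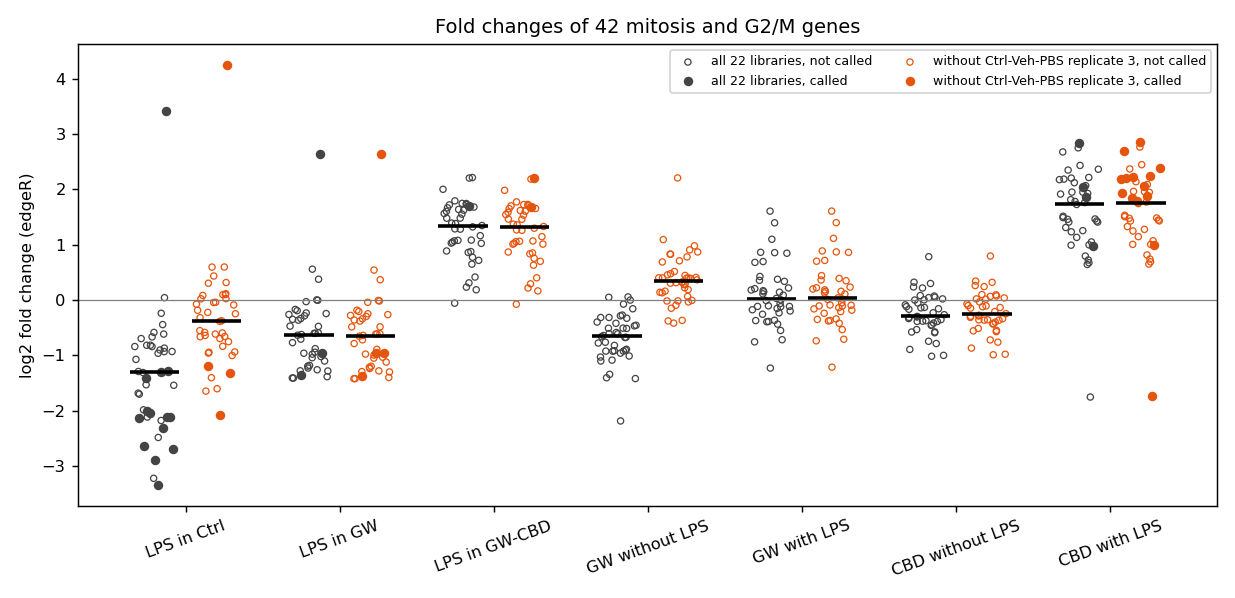
Log2 fold changes of the 42 genes (vertical) in 7 comparisons (horizontal), with all 22 libraries (grey) and without Ctrl-Veh-PBS replicate 3 (orange). Each point is a gene, filled where its adjusted p is under 0.05, and black lines are medians. The median of LPS in Ctrl moves from -1.31 to -0.38 and that of CBD with LPS from 1.74 to 1.76, and Kif2c lies far from the rest in these comparisons.

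CBD was then compared in GW mice given LPS. The log2 fold change of GW-CBD-LPS against GW-Veh-LPS was above 0 for 41 of 42 genes, Kif2c being the exception, with a median of 1.74 against 0.01 over all genes. The groups did not overlap for 31 genes, 30 higher and Kif2c lower, where 6.51% and 6.34% of all genes were. The edgeR test called 4 genes, all higher, where 2.31% of all genes were called (1.06% higher, 1.24% lower). Without Ctrl-Veh-PBS replicate 3, which is in neither group, 14 genes were called (2.61% of all genes), 13 higher and Kif2c lower. Without the 3 neutrophil-rich libraries 18 were called (4.13% of all genes), 17 higher and Kif2c lower. DESeq2 called 17 and limma voom 40 (5.44% and 21.2% of all genes), and a fit of the 2 groups alone called 0 (0 of all genes).

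The 4 called genes were Ncaph, Stmn1, Melk and Cdk1. Ncaph held 22.5, 10.8 and 17.3 CPM in GW-Veh-LPS and 36.8, 34.5, 29.4 and 32.2 CPM in GW-CBD-LPS, a rise of 0.98 on the log2 scale (SE 0.18, adjusted p = 0.00599), beside 26.7 to 35.5 CPM in the 3 PBS groups. Stmn1 held 29.5, 27.6 and 31.8 CPM in GW-Veh-LPS, against 62.8 CPM or more in GW-CBD-LPS, and rose by 1.86 (SE 0.37, adjusted p = 0.00932). Cdk1, at 4.29, 1.81 and 4.25 CPM in GW-Veh-LPS, rose by 2.04 (SE 0.52, adjusted p = 0.0403). Melk, a kinase of dividing and progenitor cells, was at 0.792, 0.517 and 0.145 CPM in GW-Veh-LPS and 6.16, 3.20, 1.5 and 3.20 CPM in GW-CBD-LPS, and rose by 2.84 (SE 0.69, adjusted p = 0.0308).

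Some of these calls rested on single libraries. Without GW-Veh-LPS replicate 3 or 4 or GW-CBD-LPS replicate 1, neither Cdk1 nor Melk was called, and Cdk1 was also lost without GW-Veh-LPS replicate 2 or GW-CBD-LPS replicate 3 or 4. Stmn1 was lost without GW-Veh-LPS replicate 3, and Ncaph kept its call under all of these. The count over the 42 was 3, 1 and 2 without GW-Veh-LPS replicates 2, 3 and 4 (443, 97 and 152 of all genes, against 382 with all libraries). Without GW-CBD-LPS replicates 1, 2, 3 and 4 it was 2, 7, 3 and 3 (158, 532, 190 and 274 of all genes). The median ran from 1.20 to 1.86 over the fits that left out 1 library.

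Genes called in addition without Ctrl-Veh-PBS replicate 3 came from most roles. They were Ccna2 (cyclin A2, 2.70, adjusted p = 0.013), Birc5 (survivin, 2.20, adjusted p = 0.0132), Aurkb (2.24) and Cdca8 (borealin, 1.79) of the passenger complex, Nuf2 (2.38) and Ndc80 (2.19) of the kinetochore, the spindle factor Tpx2 (1.93), Cdca3 (1.84), Top2a (2.22) and Kif2c (-1.74, SE 0.39, adjusted p = 0.0183). Kif2c went the other way, from 20.6, 44.0 and 31.0 CPM in GW-Veh-LPS to 3.79 to 14.7 CPM in GW-CBD-LPS.

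The interaction of CBD with LPS, the LPS response in CBD-treated GW mice minus that in GW mice given vehicle, was above 0 for 41 of 42 genes, Kif2c being the exception at -0.97, with a median of 1.86 against 0.05 over all genes. In edgeR 0 of 42 passed, where 0.0181% of all genes did (0.0121% higher, 0.00604% lower). Stmn1 (2.31, SE 0.51) and Ncaph (1.13, SE 0.26) had an adjusted p of 0.0715 and Cdk1 (2.79, SE 0.72) one of 0.109. No call was made without Ctrl-Veh-PBS replicate 3 (0.0304% of all genes) or without the 3 neutrophil-rich libraries (0.0307%). DESeq2 called 7 of the 42 (2.3% of all genes), and limma voom 28 (13.8%). This comparison, that of CBD with LPS and those of LPS in both GW arms share libraries, so their values are not independent of each other.

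Without LPS neither exposure nor CBD gave a call. GW-Veh-PBS against Ctrl-Veh-PBS had a median of -0.65 over the 42 genes with all libraries and of 0.34 without Ctrl-Veh-PBS replicate 3. Ccnb1 (-1.41, SE 0.65), Ube2c (-1.42, SE 0.68) and Ttk (-2.19, SE 1.07) had the smallest p, each with an adjusted p of 1 (-0.38, 0.37 and -0.37 without that library). Without that library 4 genes were higher in GW without overlap (Birc5, Cdca3, Spc25 and Stmn1), where 2.39% of all genes were. CBD in GW mice given PBS had a median of -0.28, with Cdk1 at -0.75 (SE 0.50, adjusted p = 0.598), Kif2c at -0.79 (SE 0.54, adjusted p = 0.604) and Ube2c at -1.001 (SE 0.75, adjusted p = 0.629). Cdk1, Ube2c, Cdca3 and Cenpa were lower with CBD without overlap, where 5.0% of all genes were. GW against control mice, both given LPS, had a median of 0.02, and the smallest p were those of Ncaph (0.34, adjusted p = 0.393), Melk (-1.23, adjusted p = 0.394) and Kif23 (1.40, adjusted p = 0.425). In all 3 comparisons edgeR, DESeq2 and limma voom called 0 of the 42. Over all genes edgeR called 0% in each, DESeq2 0.888% for GW with LPS and 0% for the other two, and limma voom 1.96% for GW with LPS, 1.31% for CBD without LPS and 0% for GW without LPS.

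Other genes of the cell cycle were counted from lists drawn up like the 42. Their calls are given with all 22 libraries alone. How far they rest on Ctrl-Veh-PBS replicate 3 was not tested. The 47 genes of DNA replication and S phase had medians above 0 for LPS in all 3 arms. In control mice 5 of 47 were called higher and none lower (median 0.26), where 10.8% of all genes were called higher, among them Cdt1 (0.75, adjusted p = 0.0287), which licenses replication origins, and Chaf1b (1.25, adjusted p = 0.0322), a chromatin assembly factor. In GW mice 4 were called higher and none lower (median 0.75), where 4.45% of all genes were called higher, such as Cdt1, the DNA polymerase subunit Pold1 and the helicase subunit Mcm2 (1.88, adjusted p = 0.0438). In CBD-treated GW mice 16 were called higher (0.393% of all genes were), and all 47 were above 0 (median 2.02). Among the called genes were Chaf1b (2.79, SE 0.47, adjusted p = 0.0182) and Cdt1 (1.51, adjusted p = 0.0201). CBD with LPS against LPS alone gave 4 calls, all higher (1.06% of all genes were), led by Tk1, a thymidine kinase (2.99, SE 0.59, adjusted p = 0.00862). The summed S-phase level was 2440, 2304, 988.8 and 2243 CPM in GW-CBD-LPS, where replicate 3 stood low, and 691.7 to 766.1 CPM in GW-CBD-PBS.

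A list of 61 further mitosis genes, 60 of them tested, had 2 called higher and 4 lower for LPS in control mice. There 20.4% of all genes were called, and Pimreg (-1.66, adjusted p = 0.0171), Nek2 and Depdc1b were lower. This list summed to 1989 CPM in Ctrl-Veh-PBS replicate 3, against 1262 to 1354 CPM in the rest of that group. In CBD-treated GW mice LPS gave 2 calls, both higher (0.393% of all genes were), Tacc3 (1.42, SE 0.31, adjusted p = 0.0483), a spindle protein, and Cks1b (1.89, SE 0.41, adjusted p = 0.0483), a Cdk-binding subunit, and 56 of 60 were above 0. Of 23 genes of G1/S control, Ccne1 (cyclin E1) rose with LPS in CBD-treated mice (3.79, SE 0.81, adjusted p = 0.0475), and it (3.10) and Ccne2 (3.10, adjusted p = 0.011) rose in GW-CBD-LPS against GW-Veh-LPS. Myc rose with LPS in control (1.65, adjusted p = 2.33e-05) and GW mice (0.88, adjusted p = 0.0199), and it fell by 1.01 (adjusted p = 0.0213) in GW-CBD-LPS against GW-Veh-LPS.

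Brakes of the cycle were also measured. Of 12 such genes, Ccng2 fell with LPS by 1.70 in control mice (adjusted p = 6.49e-06) and by 1.26 in GW mice (adjusted p = 0.000913), and Cdkn1c, the inhibitor p57, by 1.16 and 1.62 (adjusted p = 0.00136 and 0.000623). Cdkn1a, the inhibitor p21, rose by 0.92 in control mice (adjusted p = 0.00891). These were the calls among the 12, where 20.4% of all genes were called in control mice and 9.53% in GW mice. In GW-CBD-LPS against GW-Veh-LPS, Ccng2 alone was called, higher, where 2.31% of all genes were called. With LPS in CBD-treated mice 0 of the 12 were called, where only 0.417% of all genes were. Pkmyt1, a kinase that holds back Cdk1 and 1 of 25 genes of the checkpoint and anaphase list (23 tested), rose there by 2.47 (SE 0.50, adjusted p = 0.0415), from 4.34 to 6.54 CPM in GW-CBD-PBS to 12.4 to 39.1 CPM in GW-CBD-LPS.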

How the data were processed

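RNA of sorted microglia was sequenced as stranded poly(A) libraries with paired reads of 150 bases, the RNA integrity number being 8.5 or more, per the labels. The authors aligned reads to GRCm38 (mm10) and deposited whole-number counts per gene, per the labels. For the aligner, the counter, its strand setting and the annotation: not given in the sources used here. The table's 22 value columns were mapped to samples by library name, and 54495 of 54532 gene identifiers were found in GENCODE M21, which gave positions (1-based) and exon lengths.

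Genes were filtered with filterByExpr, leaving 16554 that held at least 99.9% of the counts of each library. They were scaled by TMM and fitted with group means over all 22 libraries in edgeR 4.0.16 (R 4.3.3, quasi-likelihood test). The 9 comparisons were adjusted by Benjamini-Hochberg over all genes tested, with a threshold of 0.05. CPM use TMM-scaled library totals, except single marker genes and all marker sums, which use plain totals. RPKM divide CPM by the exon union length. On simulated counts for 16554 genes, 200 of them changed, the test of LPS in control mice recovered 68.2% of 4-fold, 32.8% of 2-fold and 7.46% of 1.5-fold changes, and 2.7% of its calls were of unchanged genes. For LPS in CBD-treated mice these shares were 63.6%, 29.9%, 1.49% and 5.97%. No pair of libraries in a group matched within sampling noise (chi-square per degree of freedom from 11.7 to 234 over 30 pairs).

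The 42 genes, the companion lists and the marker lists were chosen with earlier results of these data known. Named in the text are 10 index genes (Mki67, Top2a, Smc4, Cdk1, Ccnb1, Plk1, Foxm1, Cenpf, Kif11 and Stmn1), every called gene of a comparison (the 8 with the smallest p if more), otherwise the 3 with the smallest p, and up to 3 called genes of each companion list. Other genes were named after their values were seen. A gene that this rule would name is not reported here. Alternatives were RLE scaling, no filter, DESeq2 1.42.0, limma 3.58.1 (voom with library weights), the compared groups alone, the library number as a blocking factor and leaving out every library in turn. Leaving out the 3 libraries with raised neutrophil markers, and leaving out Ctrl-Veh-PBS replicate 3 from comparisons that do not contain it, were chosen after seeing the data. Promoters came from the RefSeq table of GRCm38.p6. Figures were drawn with matplotlib 3.10.9.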

Additional observations from a re-analysis of the deposited data

Results flagged for a closer look

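The index genes, genes named for a call or a small p in a comparison, and some sums were examined for outlying libraries. Each was searched for a library far from the other 3 of its group, in the groups of 4 libraries. Of 108 such groups 24 held one. Not all of the 42 genes were examined. Some were included because they were called for LPS in control mice, a comparison that contains Ctrl-Veh-PBS replicate 3. The 24 therefore do not describe the 42 genes as a whole. The sums contain some of the same genes, and 1 library can lie far off for many genes. The 108 are therefore not independent, and no rate by chance is set beside the 24.

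Ctrl-Veh-PBS replicate 3 was the high library for most of them. It held 17.9 CPM of Cdk1, 21.8 CPM of Ccnb2, 14.7 CPM of Cenpa, 8.07 CPM of Kif23, 13.9 CPM of Nusap1 and 16.9 CPM of Plk1. It also held 22.4 CPM of Smc4, 80.0 CPM of Stmn1, 4.76 CPM of Ttk and 20.4 CPM of Ube2c. Its summed level was 603.8 CPM over the 42 genes, 479.2 CPM without Kif2c, Ncaph and Stmn1, and 1989 CPM over the 61 further mitosis genes. The neutrophil precursor markers in the same library summed to 17520 CPM, and their part in these values was not tested.

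GW-CBD-LPS replicate 1 stood high for Bub1 (6.39 CPM), Ccnb1 (9.23 CPM) and Mki67 (13.5 CPM), while replicate 2 stood high for neutrophil precursor markers (3.52 CPM) and replicate 3 low for the summed S-phase genes (988.8 CPM). Ctrl-Veh-LPS replicate 1 stood high for Kif2c (66.7 CPM), Top2a (3.12 CPM) and neutrophil precursor markers (1252 CPM). In GW-Veh-PBS, replicate 1 stood high for the further mitosis genes (1715 CPM) and replicate 4 low for Melk (0.336 CPM).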

How the results depend on the processing

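The median log2 fold change of the 42 genes kept its sign under every alternative run for LPS in each of the 3 arms, for CBD with and without LPS and for the interaction of CBD with LPS, while the number of calls varied. For LPS in control mice (14 of 42 called), DESeq2 called 23 (24.2% of all genes) and limma voom 4 (27.1%). A fit of the compared groups alone called 4 (2700 of all genes), and leaving out 1 library gave 4 to 21 (2384 to 3417 of all genes). For LPS in GW mice (3 called), leaving out 1 library gave 2 to 4 (733 to 2286 of all genes). For LPS in CBD-treated mice (1 called), DESeq2 called 6 (2.08% of all genes) and limma voom 37 (22.8%). The compared groups alone gave 0 (59 of all genes), and leaving out 1 library gave 0 to 2 (0 to 260 of all genes). For CBD with LPS (4 called), DESeq2 called 17 (5.44% of all genes) and limma voom 40 (21.2%). The compared groups alone gave 0 (0 of all genes), and leaving out 1 library gave 1 to 14 (97 to 532 of all genes). For the interaction of CBD with LPS (0 called), DESeq2 called 7 (2.3% of all genes) and limma voom 28 (13.8%). No filter gave 1 (19 of all genes), and leaving out 1 library gave 0 to 3 (0 to 211 of all genes). Without the 3 libraries with raised neutrophil markers, a choice made after seeing the data, the counts were 5, 4 and 18 for LPS in control mice, LPS in CBD-treated mice and CBD with LPS. Of all genes 14.2%, 0.953% and 4.13% were called there. The cause was not tested.

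Called in all 15 alternatives were Ncaph, Kif2c and Cenpf for LPS in control mice and Kif2c for LPS in GW mice. Ncaph lost its calls for LPS in GW mice and for CBD with LPS only in the fit of the compared groups alone.

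The library number as a replicate block gave 10 calls for LPS in control mice, 0 for LPS in CBD-treated mice and 2 for CBD with LPS. Over all genes these fits called 3211, 0 and 269. Deviations of libraries of the same number from their group means had correlations from -0.29 to 0.14, and in no comparison were all over 0.1. With 3 or 4 libraries in a group these values cannot decide whether libraries of the same number share a batch, which was not tested.

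Some values turned sign, and the cause was not tested. The median for GW without LPS was 0.061 in limma voom, 0.34 without Ctrl-Veh-PBS replicate 3 and 0.45 without the 3 libraries (-0.96 to 0.34 when 1 library was left out), and that of the GW by LPS interaction -0.27 and -0.13 under the last 2 of these (-0.27 to 0.86). The median for GW with LPS ran from -0.11 to 0.21 when 1 library was left out. For GW without LPS, Ube2c was at 0.11, 0.37 and 0.44 in the same 3 fits (-1.765 to 0.37 when 1 library was left out) and Ttk at 0.0096 without the 3 libraries. For LPS in control mice, Foxm1 was at 0.084 and 0.065, Smc4 at 0.098 and 0.053, without Ctrl-Veh-PBS replicate 3 and without the 3 libraries, and Stmn1 at 0.097 in the first of these. Their lowest values with 1 library left out were -1.035, -0.85 and -0.43. For LPS in GW mice, Smc4 was at 0.0039 with no filter, 0.10 in limma voom, 0.0038 in the compared groups alone and from -0.15 to 0.14 when 1 library was left out, and Foxm1 from -0.41 to 0.17, the last without GW-Veh-PBS replicate 2. For LPS in CBD-treated mice, Cenpf was at 0.21 in limma voom and at 0.33 and 0.02 without GW-CBD-PBS replicate 3 and GW-CBD-LPS replicate 2, with -0.25 as the lowest when 1 library was left out.

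In the simulation 32.8% and 29.9% of 2-fold changes were recovered for LPS in control and in CBD-treated mice.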
